A study of Mus musculus with 40 samples.

Results

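The miR-15, miR-16, miR-195, miR-497 and miR-322 family is a group of mature miRNAs with the same seed, and 6 of its members were followed here in 4 mouse tissues. The members are mmu-miR-15a-5p, mmu-miR-15b-5p, mmu-miR-16-5p, mmu-miR-195a-5p, mmu-miR-497a-5p and mmu-miR-322-5p, where the prefix for mouse is left out from here on. They were chosen by name, with earlier results of these data known, and make up 6 of the 1894 mature miRNA entries in the deposited table. In the pulled-down RNA their levels were low in brown fat, with a few counts or none in the other tissues, while all 6 had counts in the total RNA of every tissue.

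The study sequenced small RNA of 10 male mice aged 8 to 12 weeks, from their brown fat, liver, hypothalamus and gastrocnemius muscle. The design describes UCP1;UPRT mice, which carry the Cre recombinase under the brown-fat promoter Ucp1 and a Cre-dependent transgene of GFP and uracil phosphoribosyltransferase (Uprt) driven by the CAG promoter. Every group received 4-thiouracil (4TU) at 50 mg/kg into the peritoneum, 4 times at intervals of 48 h. Each tissue had 5 libraries of RNA captured on streptavidin after biotinylation of its thiol groups (IP) and 5 libraries of total small RNA (input), 8 groups and 40 libraries in all. The 8 groups share the genotype and the treatment, and no library came from mice without 4TU or without Cre. The level in an IP therefore has no unlabelled background beside it, and it is given as captured RNA, not as labelled RNA. By their library names all IPs were in one pool and all inputs in another, so pool and library type cannot be told apart.

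A miRNA guides Argonaute to messenger RNAs mainly through its seed, the bases just after its 5′ end, so miRNAs with one seed can act on overlapping sets of targets. The miR-15/16 family is known for repressing cell-cycle genes such as cyclins D1 and E1, and the survival gene BCL2. The human miR-15a/16-1 cluster is deleted in many chronic lymphocytic leukaemias, and in the mouse heart miR-195 takes part in the exit of muscle cells from the cell cycle after birth. UPRT joins 4TU to ribose phosphate, so that thiol-bearing uridine can enter new RNA in cells that express the enzyme.

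The mature sequences, from RefSeq, are given because the seed defines the family and the bases after it set the members apart. Capitals mark the seed, bases 2 to 8 from the 5′ end.
miR-16-5p: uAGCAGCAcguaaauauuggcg
miR-195a-5p: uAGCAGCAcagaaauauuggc
miR-15a-5p: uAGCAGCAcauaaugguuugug
miR-15b-5p: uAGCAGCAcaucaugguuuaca
miR-497a-5p: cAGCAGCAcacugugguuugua
miR-322-5p: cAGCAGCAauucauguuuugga

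All 6 seeds were the same 7 letters. These letters stood at bases 2 to 8 in 10 of 1679 mouse mature miRNAs of the reference, and of the 4 entries that are not members only miR-195b had a count. Over their whole length miR-16-5p and miR-195a-5p matched at 19 of 21 positions, and miR-15a-5p and miR-15b-5p at 18 of 22. From base 9 on, miR-16-5p and miR-195a-5p shared 11 of 13 positions, while miR-15a-5p shared 10 of 14 with miR-15b-5p and 10 of 14 with miR-497a-5p. miR-16-5p and miR-497a-5p, the least alike over 22 positions, matched at 11 of 22. The members held 4 to 7 uracils each, around the median of 6 over the miRNAs tested in brown fat.

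In the mouse build GRCm38 (mm10) the hairpins lay at 4 places. Mir15a (chr14:61632027-61632110) and Mir16-1 (chr14:61631880-61631972) started 147 bases apart on the minus strand inside the non-coding gene Dleu2, Mir15a between its exons and Mir16-1 overlapping one. Mir15b (chr3:69009772-69009835) and Mir16-2 (chr3:69009902-69009996) started 130 bases apart on the plus strand within Smc4, a condensin gene, and overlapped no exon of it. Mir497 (chr11:70234717-70234800) and Mir195a (chr11:70235042-70235135) started 325 bases apart on the plus strand, and Mir497 overlapped Mir497b on the other strand. Mir322 (chrX:53054255-53054349) lay on the minus strand of the X chromosome, in a cluster with miR-503, miR-351, miR-542 and miR-450. Mature miR-16-5p is made from both Mir16 hairpins, so its counts cannot be assigned to one of them.

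Total miRNA counts ran from 11928 to 921297 in the 20 IPs (median 222657) and from 153036 to 5562487 in the 20 inputs (median 1284131). The marker miRNAs of each tissue were high in its own libraries. Brown fat libraries held, in addition, 3 muscle marker miRNAs at a summed 50600 to 257000 counts per 1000000 counted miRNA reads (CPM) in the IPs and 69000 to 293000 CPM in the inputs. Hypothalamus input 4 stood apart, with 153036 counts and 189000 CPM of the muscle markers, against 1530 to 2560 CPM in the other 4 hypothalamus inputs. That library also held 22900 CPM of the liver markers, against 1160 to 1310 CPM in the other 4. Of the brown fat markers it held 11300 CPM, against 1050 to 2100 CPM. Liver IP 4 held 11928 counts and 16300 CPM of the muscle markers, against 452 to 1340 CPM in the other 4 liver IPs. In brown fat input 5 the 3 red-blood-cell markers summed to 814 CPM, against 64.0 to 192 CPM in the other 4 brown fat inputs. In these whole tissues, fewer cells of a type and less RNA per cell cannot be told apart.

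In brown fat, the tissue in which the transgene is switched on, all 6 members were lower in the IP than in the input. Together they made up 59.3 ± 19.7 CPM of the IP (SD, n = 5), or 0.00593% of its counts, against 3268 ± 1715 CPM of the input (SD, n = 5), or 0.327%. The family thus made up a smaller share of captured than of total miRNA. Every IP was below every input for each of the 6 members, which also held for 51.8% of the 305 miRNAs tested. By edgeR's quasi-likelihood test with Benjamini-Hochberg adjustment over all miRNAs tested, 6 of 6 members were called lower at an adjusted p under 0.05, where 43.3% of all tested miRNAs were. Members other than miR-16-5p had few IP counts and passed the filter on low counts through their inputs alone. Their calls were therefore largely set by the filter. The members' median log2 fold change was −4.97, or −5.03 with the 3 members of 1 to 3 IP counts taken at their ratio of counts, and the median over all 305 miRNAs was −0.34.

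miR-16-5p, the most abundant member, had 21.8, 49.1, 56.6, 37.99 and 31.8 CPM in brown fat IPs 1 to 5, against 781, 2045, 1822, 1709 and 3279 CPM in inputs 1 to 5. The highest IP was far below the lowest input. The log2 fold change was −4.48 (SE 0.35, edgeR adjusted p = 8.34e-09), the 34th lowest of 305. When libraries were scaled by total count the log2 value was −5.65, with the median of all tested miRNAs at −1.44.

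miR-195a-5p, which differs from miR-16-5p at 2 of 21 positions, had 3.67, 24.0, 4.12, 9.50 and 8.57 CPM in the IPs, against 134, 428, 144, 462 and 785 CPM in the inputs. IP 2 was high among the IPs but lay far below the lowest input. Its log2 fold change was −4.30 (SE 0.51, edgeR adjusted p = 8.20e-07). How the authors shared reads that match several miRNAs is not stated, so counts of such close members may not be fully separate. miR-322-5p, the X-linked member, had 4.90, 4.18, 8.24, 0 and 7.50 CPM in the IPs, against 141, 426, 319, 263 and 529 CPM in the inputs. It had no count in IP 4 and few in the other 4 IPs, with no overlap between the groups. Its log2 fold change was −4.75 (SE 0.44, edgeR adjusted p = 5.06e-08).

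The remaining 3 members were close to 0 in the brown fat IPs. miR-15a-5p had 2.24, 5.56, 1.65, 1.57 and 1.07 CPM in the IPs, against 124, 315, 407, 297 and 996 CPM in the inputs. Summed over the libraries it had 3 rounded IP counts against 2833 input counts, which put it 123-fold lower in the IP on the scale of the test (TMM), with an exact 95% interval of 42.2 to 599. It was called (edgeR adjusted p = 8.62e-08) and ranked 11th lowest of 305. The interval covers counting error only, since counts were summed over the libraries, and it leaves out the spread between them. The reads also carry no molecular identifiers.

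miR-497a-5p, the neighbour of miR-195a, was 39.7-fold lower in the IP (exact 95% interval 13.5 to 193), from 3 rounded IP counts against 911 input counts (edgeR adjusted p = 1.97e-06). miR-15b-5p was 45.5-fold lower (interval 8.11 to 1800), from 1 IP count against 348 input counts (edgeR adjusted p = 1.85e-05). For both, every input was above every IP, and the width of the intervals comes from the few IP counts. The fitted log2 fold change of miR-15b-5p, −5.27, was −8.37 without brown fat IP 5, which held its only rounded count. Without brown fat IP 1, that of miR-497a-5p, −5.18, was −4.58, and that of miR-15a-5p, −6.89, was −7.73. All 6 brown fat calls held under each alternative that was run, including without any one library. This adds little for the members that passed the filter through their inputs alone. The 3 red-blood-cell markers summed to 0.869 to 4.29 CPM in brown fat IPs and 64.0 to 814 CPM in inputs, and the 2 endothelial markers to 1550 to 3030 CPM in IPs and 23800 to 57100 CPM in inputs. These 2 lists, and the 4 leukocyte markers at 392 to 724 CPM in IPs and 782 to 1970 CPM in inputs, moved the same way as the family. The brown fat marker miR-193b-3p was lower too, at 12.5 to 176 CPM in IPs and 225 to 1280 CPM in inputs. So was the brown fat marker miR-365-3p, at 76.2 to 508 CPM in IPs and 532 to 2610 CPM in inputs. The brown fat marker miR-378a-3p overlapped, at 78600 to 173000 CPM in IPs and 93600 to 131000 CPM in inputs. Of all miRNAs tested, 51.8% had every IP below every input. The part of any of these markers in the result was not tested.

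**Figure D1:**
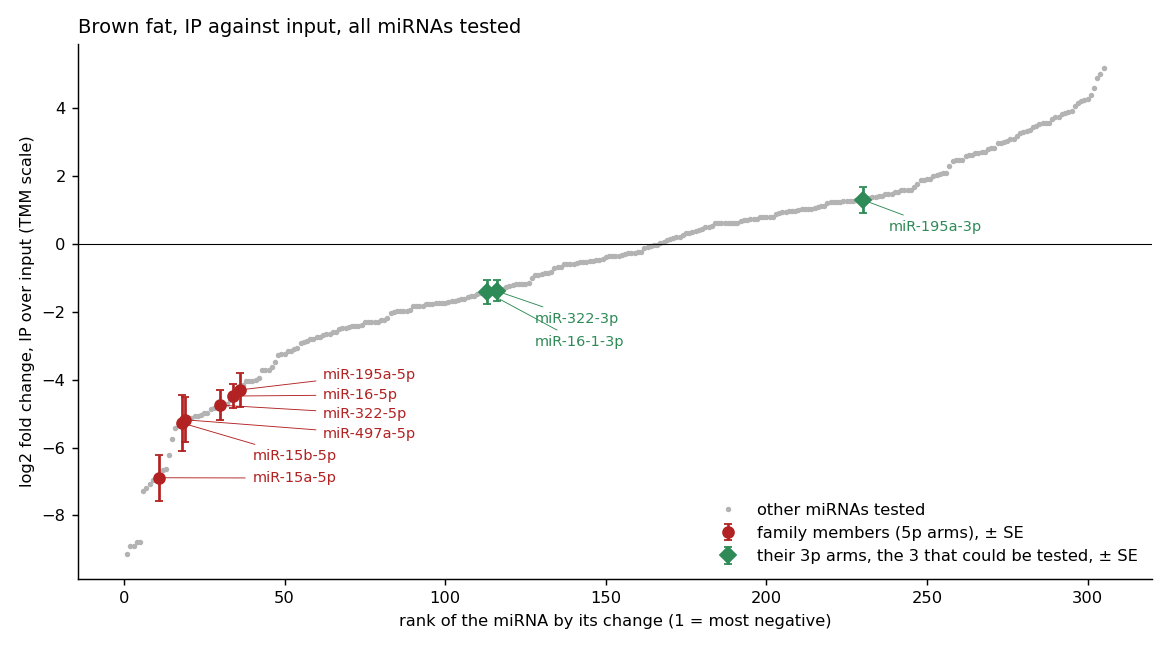
Log2 fold change of IP over input in brown fat for all 305 miRNAs tested, ranked from lowest to highest, with the members as red circles and their 3 tested 3p arms as green diamonds, each with its SE as a bar. All 6 members lie at the low end, with miR-16-5p 34th lowest.

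In liver, muscle and hypothalamus few counts of the members were left in the IP. The 6 summed to 4.91 ± 7.69 CPM in liver IPs, against 661 ± 278 CPM in liver inputs (SD, n = 5 each). In muscle the sums were 2.76 ± 1.47 CPM in IPs and 405 ± 140 CPM in inputs, and in hypothalamus 12.4 ± 8.97 CPM in IPs and 689 ± 346 CPM in inputs. In no tissue did the IP sum come near that of the input.

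miR-16-5p had 18.15, 1.33, 3.94, 0 and 0 CPM in liver IPs 1 to 5, against 387, 658, 304, 772 and 475 CPM in liver inputs. The highest liver IP was far below the lowest liver input. In liver, muscle and hypothalamus miR-16-5p passed the filter on low counts through its inputs alone. Its calls in these tissues, also with a library left out, were therefore largely set by the filter. From 4 rounded IP counts against 2372 input counts it was 36.4-fold lower in the IP (exact 95% interval 14.2 to 134), with a log2 fold change of −5.15 (SE 0.60, edgeR adjusted p = 4.17e-08). Without the shallow liver IP 4 the log2 value was −5.08 and still called. Without liver IP 1 it was −5.91, and without any one of the 5 liver inputs −6.21 to −5.92, also called.

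In muscle, miR-16-5p had 0.543, 2.07, 1.44, 2.86 and 4.55 CPM in the IPs, against 166, 281, 164, 349 and 360 CPM in the inputs. It was 103-fold lower in the IP (exact 95% interval 35.3 to 500, 3 against 5515 rounded counts) and was called (edgeR adjusted p = 9.73e-11). The fitted log2 value of −6.64 was −7.88 without muscle IP 2. The groups did not overlap.

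In the hypothalamus, miR-16-5p had 8.71, 0, 11.6, 7.37 and 21.6 CPM in the IPs, against 341, 314, 855, 477 and 460 CPM in the inputs. It was 29.6-fold lower in the IP (exact 95% interval 15 to 68.6, 8 against 4516 rounded counts, edgeR adjusted p = 2.46e-05). Again no IP reached the lowest input. The fitted log2 fold change of −4.95 was −4.83 without hypothalamus input 4 and −5.68 without hypothalamus IP 5, both called.

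The other members could mostly be given only as bounds in these 3 tissues, because their IP counts summed to 0 after rounding. Taking 3 counts over the group in place of 0, on the TMM scale, miR-195a-5p was at least 25.1-fold lower in the IP in muscle and at least 3.33-fold lower in liver. In the hypothalamus it was 17.5-fold lower (exact 95% interval 4.84 to 145, 2 against 669 counts, edgeR adjusted p = 1.01e-04). miR-15a-5p was at least 8.56-fold lower in muscle, at least 6.61-fold in hypothalamus and at least 6.1-fold in liver. For the other 3 members the bounds were weak in liver, at least 1.1- to 1.25-fold. In muscle miR-497a-5p and miR-322-5p were at least 9.98- and 9.94-fold lower in the IP, and miR-15b-5p at least 1.33-fold. In hypothalamus miR-497a-5p was at least 4.14-fold lower, miR-322-5p at least 1.75-fold and miR-15b-5p at least 1.15-fold.

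Of the 6 members, 4 had no count in any liver IP, and 2 had none in any muscle or hypothalamus IP. All 6 had every IP below every input in each of the 3 tissues, where the same held for 60.0% of tested miRNAs in liver, 55.6% in muscle and 45.1% in hypothalamus. The filter on low counts passed 3 members in liver, 5 in muscle and 2 in hypothalamus. All of these, miR-16-5p included, passed through their inputs alone, so that edgeR's call of them as lower was largely set by the filter. Over all tested miRNAs 46.0% were called lower in liver, 56.3% in muscle and 47.3% in hypothalamus. The IP totals of these tissues limit what can be seen, as liver IPs held 11928 to 444006 counts and hypothalamus IPs 67819 to 229622.

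**Figure D2:**
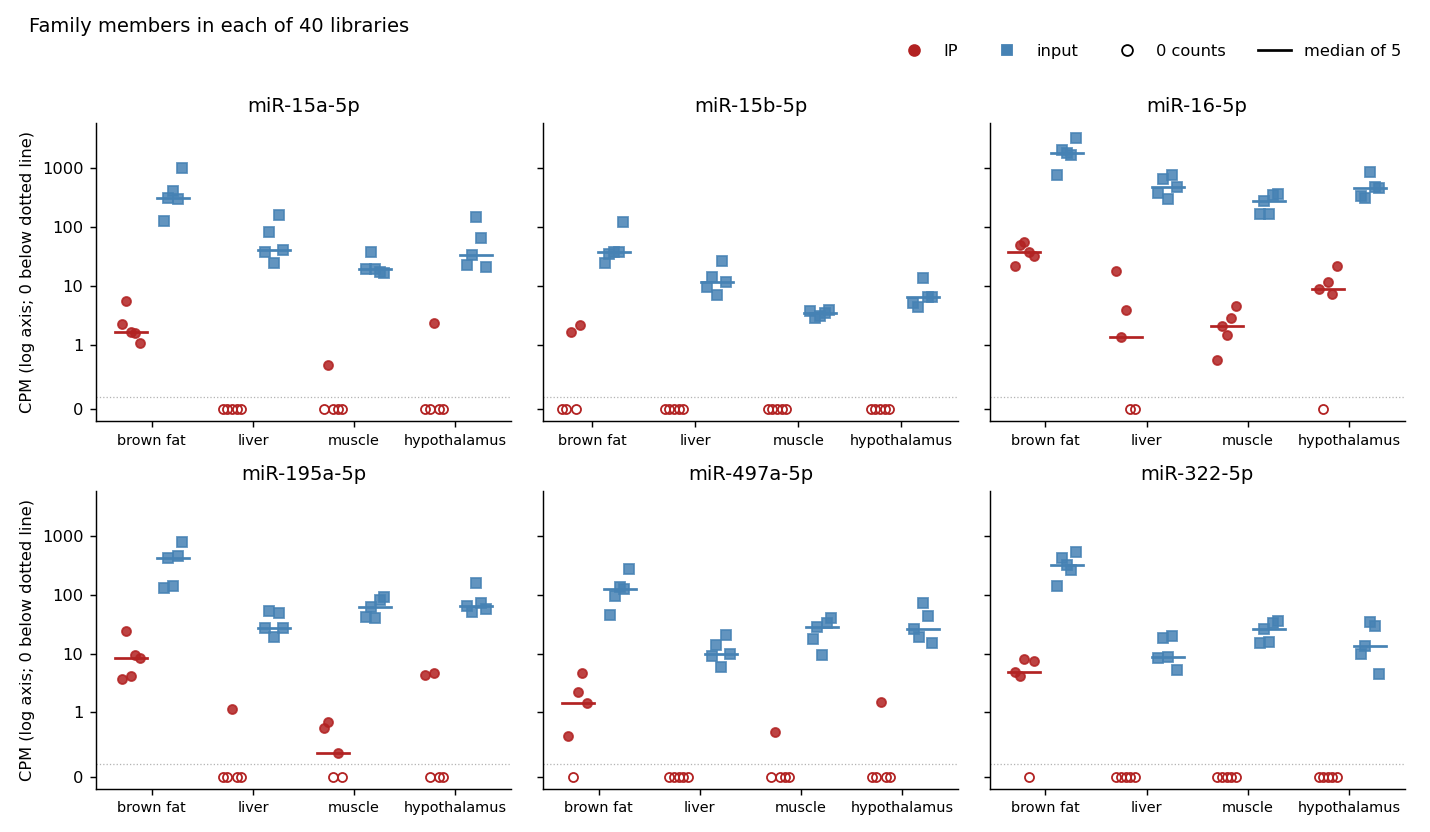
Level of each member in CPM on a log axis, 1 point per library, by tissue, with IPs (red circles) left of inputs (blue squares), 0 counts as open circles and group medians as lines. In each tissue the IPs of a member lie below its inputs, and the 6 members sum to a mean of 59.3 CPM in brown fat IPs, against 3268 CPM in brown fat inputs.

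Whether the IP differed from the input by another amount in brown fat than in the other tissues was tested as a difference of log2 fold changes, positive where the member fell less in brown fat. None of the 6 members was called by edgeR in any of the 3 differences. In the same tests, 8.44% of all miRNAs were called in either direction for brown fat minus liver, 21% for brown fat minus muscle and 34.4% for brown fat minus hypothalamus. At an unadjusted p under 0.05, 0, 1 and 0 members passed in these comparisons in that order, and DESeq2 called 2, 0 and 1. The SEs were large where IP counts were near 0, up to 7.44 for miR-15b-5p against hypothalamus. Values are given for miR-16-5p, the member with the most counts.

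For miR-16-5p the difference in log2 fold change was 1.06 against liver (SE 0.79, edgeR adjusted p = 0.427). Against muscle it was 1.86 (SE 0.83, edgeR adjusted p = 0.117). Blocking on the mouse called miR-16-5p against muscle at 2.19 (edgeR adjusted p = 0.0265) and miR-195a-5p at 6.81 (edgeR adjusted p = 0.0489). The difference for miR-16-5p against muscle was also called without brown fat input 5, at 2.20 (edgeR adjusted p = 0.0435), and without muscle IP 2, at 3.22 (edgeR adjusted p = 0.0295).

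Against hypothalamus it was −1.42 (SE 0.69, edgeR adjusted p = 0.121), but no direction can be given. The value was 0.079 with total count scaling, and the sign turned in 17 of 20 fits that left out 1 library each, which gave −1.54 to 2.27. In 11 of these 17 the difference was called with the opposite sign. The median over all miRNAs in that comparison was itself −1.30 with TMM and 0.17 with total counts.

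A miRNA hairpin is cut into a 5p and a 3p arm, of which usually one, the guide, is kept by Argonaute. In brown fat the arms of miR-195a and miR-322 stood in other proportions in the IP than in the input. The hairpins, from RefSeq, are shown because they place both arms on 1 precursor, with the arms in capitals, the 5p arm first.
Mir195a: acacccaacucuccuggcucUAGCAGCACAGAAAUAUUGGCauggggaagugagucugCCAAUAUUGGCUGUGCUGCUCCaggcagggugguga
Mir322: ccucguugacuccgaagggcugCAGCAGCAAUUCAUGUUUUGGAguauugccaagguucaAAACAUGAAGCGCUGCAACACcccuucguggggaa

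For miR-195a, estimated counts of the 5p arm, the family member, were 3, 5.8, 1.2, 2 and 4 in brown fat IPs 1 to 5, beside 38.4, 19.5, 12, 2 and 18 of the 3p arm. In brown fat inputs 1 to 5 the 5p arm had 283.5, 414.6, 184.6, 719.2 and 1009 counts, beside 49.6, 55, 50.5, 71.8 and 28 of the 3p arm. The 5p share of the 2 arms was thus 7.24% to 50.0% in the IPs and 78.5% to 97.3% in the inputs, without overlap. Pooled, it was 15.1% in the IPs and 91.1% in the inputs.

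For miR-322 the 5p arm had 4, 1, 2.5, 0 and 3.5 counts in the IPs, beside 33.7, 27.5, 21.2, 6 and 22 of the 3p arm. In the inputs it had 298.9, 413.1, 408.9, 408.4 and 679.7 counts, beside 391.5, 459.6, 417, 545.3 and 400 of the 3p arm. The 5p share was thus 0% to 13.7% in the IPs and 42.8% to 63.0% in the inputs, again without overlap, and 9.07% against 50.0% when pooled. miR-16 moved the same way to a lesser degree, with 48.7% to 89.6% 5p in the IPs and 90.6% to 96.1% in the inputs. miR-15b, with few counts, had 0% to 33.3% 5p in the IPs and 79.6% to 90.5% in the inputs. The other 2 hairpins overlapped. miR-15a had 50.0% to 100% 5p in the IPs and 97.4% to 98.0% in the inputs, from 4.49 summed IP counts of its 5p arm. miR-497a had 51.9% to 100% 5p in the 4 IPs with a count and 99.7% to 100% in the inputs. In hypothalamus miR-16 had 100% 5p in the 4 IPs with a count and 79.4% to 93.2% in the inputs. Those IPs held 9.5 summed counts of the 5p arm and 0 of the 3p arm, too few to give a direction. Pooled, liver IPs had 30.0% 5p for miR-16 (4 and 9.33 counts) against 85.3% in inputs. Muscle IPs had 80.0% (4 and 1 counts) against 93.1%.

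Of the 7 3p arms of the family, 3 passed the filter in brown fat. miR-195a-3p averaged 43.2 ± 25.7 CPM in the IP and 37.48 ± 14.96 CPM in the input (SD, n = 5 each). Its log2 fold change was 1.30 (SE 0.38, edgeR adjusted p = 0.00446), but 0.23 with total count scaling (edgeR adjusted p = 0.64), so its rise depends on the scaling. miR-322-3p, at 60.3 ± 33.97 CPM in the IP and 329 ± 103 CPM in the input, was called lower at −1.38 (edgeR adjusted p = 5.89e-04). miR-16-1-3p, at 21.5 ± 11.1 CPM in the IP and 125 ± 41.4 CPM in the input, was called lower at −1.42 (edgeR adjusted p = 0.00129). A ratio of arms within a library does not depend on the scaling between libraries.

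Lower 5p than 3p arms in the IP were not particular to the family. Of the 68 hairpin names with both arms tested in brown fat, 42 had the lower log2 fold change on the 5p arm, with a median difference of −0.87. miR-195a, at −5.61, had the 5th lowest difference of the 68, and miR-322, at −3.37, the 12th lowest. In muscle 34 of 52 had the lower value on the 5p arm, and since the 5p arms of miR-195a and miR-322 had no IP count after rounding there, they are given no rank. The arm that was lower in the IP was the one with more uracils for miR-322, with 7 in miR-322-5p and 2 in miR-322-3p, and the one with fewer for miR-195a, with 4 in miR-195a-5p and 7 in miR-195a-3p. Across the 266 miRNAs with a sequence and a test in brown fat, the Pearson correlation of the IP change with the number of uracils was −0.01, and with the percent of G and C it was 0.40. These correlations are across miRNAs in shared libraries and describe only.

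**Figure D3:**
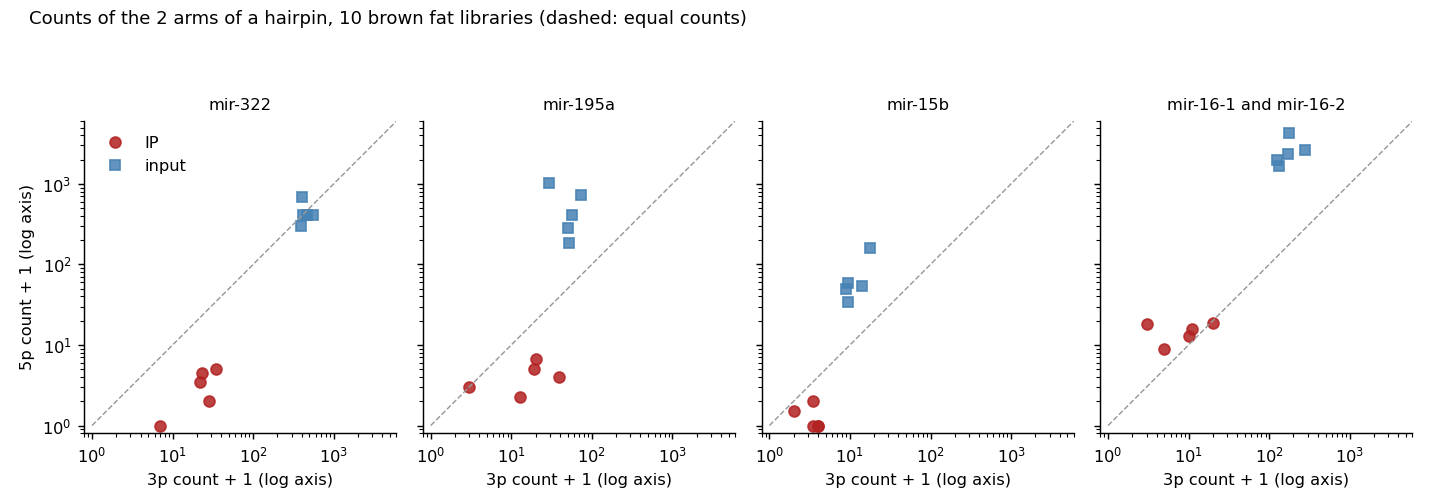
Estimated count of the 5p arm against that of the 3p arm of 4 hairpins (1 added to each, log axes), 1 point per brown fat library, IPs as red circles and inputs as blue squares, with equal counts on the dashed line. For miR-195a the inputs lie above the line and the IPs on or below it, and for miR-322 the inputs lie near the line and the IPs below it.

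The input libraries give the family's level in each tissue. Brown fat had the highest mean CPM for all 6 members, and miR-16-5p was the most abundant member everywhere. miR-16-5p averaged 1927 ± 896 CPM in brown fat, 519 ± 193 in liver, 489 ± 216 in hypothalamus and 264 ± 95.3 in muscle (SD, n = 5 each). Every brown fat input lay above the liver, hypothalamus and muscle medians, but brown fat input 1, at 781 CPM, was below hypothalamus input 3, at 855 CPM. Liver and hypothalamus overlapped almost wholly, and both overlapped with muscle.

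miR-322-5p, for which no brown fat input overlapped with any other tissue, averaged 336 ± 149 CPM in brown fat, 25.5 ± 9.81 in muscle, 18.3 ± 12.9 in hypothalamus and 12.2 ± 6.61 in liver (SD, n = 5 each). Its lowest brown fat input, at 141 CPM, was above the highest input of any other tissue, 36.5 CPM in muscle. The other 3 tissues overlapped with each other. miR-15a-5p averaged 428 ± 334 CPM in brown fat, 68.8 ± 54.6 in liver, 58.0 ± 52.9 in hypothalamus and 22.1 ± 8.88 in muscle. Brown fat input 1, at 124 CPM, lay below liver input 4 and hypothalamus input 3 for this member.

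miR-195a-5p averaged 391 ± 269 CPM in brown fat, 80.7 ± 44.5 in hypothalamus, 64.4 ± 23.9 in muscle and 35.2 ± 14.8 in liver. miR-497a-5p kept that order, at 135 ± 85.3 CPM in brown fat, 35.4 ± 23.4 in hypothalamus, 25.8 ± 12.4 in muscle and 12.1 ± 5.81 in liver. The neighbouring tissues in this order overlapped. miR-15b-5p, the least abundant member in brown fat, averaged 51.1 ± 39.9 CPM there, 13.8 ± 7.75 in liver, 7.20 ± 3.73 in hypothalamus and 3.40 ± 0.45 in muscle. All 5 muscle inputs, at 2.81 to 3.89 CPM, were below all inputs of the other tissues for miR-15b-5p.

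Contrasts between tissues depended on how libraries were scaled. Scaling by total count in place of TMM moved the median log2 difference of all 444 miRNAs tested to 1.41, against 0.16 with TMM, for brown fat minus liver. For brown fat minus muscle the medians were 2.25 and 0.16, for brown fat minus hypothalamus −1.04 and −0.62, and for liver minus muscle 1.03 and 0.23. For liver minus hypothalamus they were −2.50 and −0.90, and for muscle minus hypothalamus −3.36 and −0.83. Contrasts are given on the TMM scale, with the places where another scaling ended or turned them.

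Against hypothalamus, all 6 members were called higher in brown fat by edgeR, where 35.1% of all tested miRNAs were. The log2 differences were 4.89 for miR-322-5p (SE 0.41, edgeR adjusted p = 6.56e-10), 3.37 for miR-15a-5p and 3.12 for miR-15b-5p. miR-195a-5p, miR-497a-5p and miR-16-5p were at 2.61, 2.42 and 2.29. All 6 calls held under each alternative and without any one library, hypothalamus input 4 included. Without hypothalamus input 3 the value of miR-15a-5p was 4.03.

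Against liver, 4 of 6 members were called higher in brown fat, where 26.4% of tested miRNAs were. These were miR-322-5p at 3.49 (SE 0.39, edgeR adjusted p = 3.58e-07), miR-497a-5p at 2.20, miR-195a-5p at 2.13 and miR-15a-5p at 1.39 (SE 0.48, edgeR adjusted p = 0.0238). miR-16-5p at 0.60 (edgeR adjusted p = 0.0735) and miR-15b-5p at 0.61 (edgeR adjusted p = 0.173) were not called, but were with total count scaling, at 1.89 and 1.90. Without brown fat input 1 miR-16-5p was called too, at 0.73 (edgeR adjusted p = 0.0308). The call of miR-15a-5p was lost without brown fat input 5 (log2 0.94, edgeR adjusted p = 0.115) and without liver input 1, 3 or 5. With the mouse as a block, miR-15a-5p at 0.32 (edgeR adjusted p = 0.806) and miR-497a-5p at 1.19 (edgeR adjusted p = 0.0804) were not called, which left 2 members.

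Against muscle, 4 of 6 members were called higher in brown fat, where 22.7% of tested miRNAs were. miR-15a-5p was at 2.02 (SE 0.49, edgeR adjusted p = 0.00234), miR-15b-5p at 1.67 (SE 0.35, edgeR adjusted p = 7.23e-04) and miR-322-5p at 1.55 (SE 0.34, edgeR adjusted p = 0.00101). miR-16-5p, at 0.70 (edgeR adjusted p = 0.0404), lost its call with DESeq2, with RLE scaling, with no filter on low counts and without any one of 6 libraries, brown fat inputs 2, 3 and 5 and muscle inputs 1, 2 and 3. miR-195a-5p at 0.39 and miR-497a-5p at 0.23 were not called, though total count scaling called all 6. With the mouse as a block only miR-15b-5p was called, 1 member in all, and miR-322-5p stood at 1.05 (edgeR adjusted p = 0.0519) and miR-15a-5p at 1.48 (edgeR adjusted p = 0.097). The muscle markers in the brown fat inputs were given above, and their part in this contrast was not tested.

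Between liver and muscle the members split. miR-497a-5p at −1.97, miR-322-5p at −1.94 and miR-195a-5p at −1.74 were called lower in liver, 3 members, where 27.3% of all tested miRNAs were (edgeR adjusted p = 4.49e-04, 2.35e-04 and 3.13e-04 in that order). With total count scaling these 3 kept their sign at −1.12, −1.08 and −0.88 but were not called (edgeR adjusted p = 0.0669, 0.0651 and 0.0987). miR-15b-5p was called higher in liver at 1.06 (edgeR adjusted p = 0.0235), 1 member, where 27.5% of tested miRNAs were called higher. That call was lost without liver input 4 (0.85, edgeR adjusted p = 0.0768), without muscle input 2 (0.98, edgeR adjusted p = 0.0509) and with DESeq2 (0.92, adjusted p = 0.0586).

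Against hypothalamus, 4 members were called higher in liver, where 32% of tested miRNAs were, and 6 members in muscle, where 31.1% were. In liver these were miR-15b-5p at 2.51, miR-15a-5p at 1.98, miR-16-5p at 1.69 and miR-322-5p at 1.40 (edgeR adjusted p = 0.00433 or smaller). With the mouse as a block miR-497a-5p was called higher in liver too, at 1.13 (edgeR adjusted p = 0.031). In muscle miR-322-5p was at 3.34 (edgeR adjusted p = 1.31e-07) and the other 5 at 1.35 to 2.23. The muscle call of miR-15a-5p, at 1.35, was lost without muscle input 2 and without hypothalamus input 2. Without hypothalamus input 3 miR-15a-5p was at 2.004 in muscle and 2.62 in liver. Neither set holds with total count scaling. There miR-322-5p was at −0.40 in liver, and in muscle miR-15a-5p, miR-15b-5p and miR-16-5p were called lower at −1.36, −1.09 and −0.89, so no order between these tissues and hypothalamus can be given.

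Within a library, the ratio of a member to miR-16-5p does not depend on that scaling. On the log2 scale, with 0.5 added to both counts, miR-322-5p stood at −2.70 to −2.26 in brown fat inputs and at −3.44 to −3.30 in muscle inputs. It stood at −6.67 to −3.88 in hypothalamus and at −6.33 to −5.03 in liver. Brown fat lay above muscle, and muscle above the other 2 tissues, with no overlap, while hypothalamus and liver overlapped. miR-497a-5p stood at −5.54 to −5.14 in liver, below every input of the other tissues, whose means were −3.43 in muscle, −3.90 in hypothalamus and −3.92 in brown fat. miR-195a-5p was also lowest beside miR-16-5p in liver, at −4.08 to −3.63, and averaged −2.03 in muscle, −2.48 in brown fat and −2.62 in hypothalamus. In brown fat its range of −3.66 to −1.89 reached into that of liver.

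As a share of the 6 members' counts, miR-16-5p made up 60.2% ± 3.48 in brown fat, 79.7% ± 3.84 in liver, 72.3% ± 5.74 in hypothalamus and 64.9% ± 1.65 in muscle inputs (SD, n = 5 each). miR-322-5p took 10.6% of the family in brown fat and 1.84% in liver. In the brown fat IPs the share of miR-16-5p was 66.5% ± 6.99, that of miR-195a-5p 15.9% against 11.5% in the inputs, and that of miR-15a-5p 4.13% against 12.1%.

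**Figure D4:**
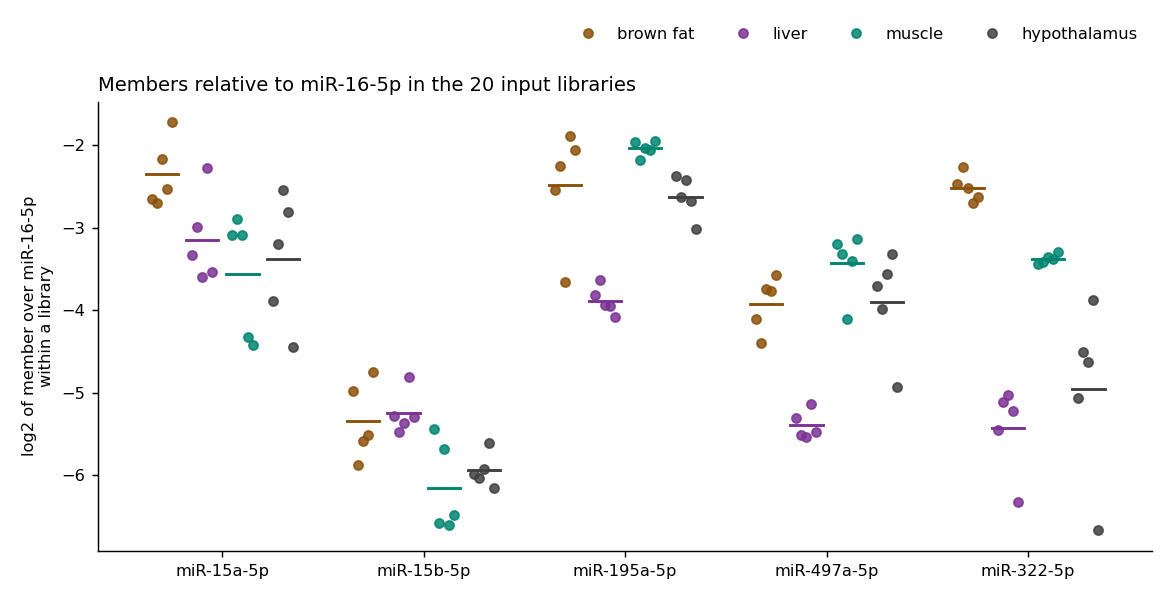
Log2 ratio of each member to miR-16-5p within each input library (0.5 added to both counts), 1 point per library, by tissue, with the group mean as a line. miR-322-5p is highest in brown fat, then muscle, with no overlap, and the means of miR-195a-5p and miR-497a-5p are lowest in liver.

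The neighbours of miR-322 on the X chromosome were high in brown fat inputs as well. Of 11 listed mature miRNAs of the cluster, 7 were tested, and edgeR called 6 higher in brown fat than in liver, 7 than in muscle and 7 than in hypothalamus, with median log2 differences of 1.42, 1.41 and 3.48. Over all tested miRNAs 26.4%, 22.7% and 35.1% were called higher in these contrasts. The input contrasts of the cluster were read from the TMM fit of all inputs only, without the alternatives given for the members. miR-450a-5p averaged 502 ± 170 CPM in brown fat inputs, against 76.3 CPM in liver, 71.0 in muscle and 60.6 in hypothalamus. miR-503-5p averaged 26.8 CPM in brown fat and 2.15 to 2.99 CPM in the other 3 tissues. It is often counted with the family, but its seed ends in another base, as the capitals show.
miR-503-5p: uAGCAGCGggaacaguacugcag

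In the brown fat IP the cluster was mixed, with 3 of 6 tested called lower and 2 of 6 higher, where 43.3% of all tested miRNAs were called lower and 36.7% higher. The shares in the cluster were close to that background. miR-450b-5p at −4.75, miR-542-3p at −2.79 and miR-450a-5p at −2.18 were called lower. miR-450b-3p at 1.03 and miR-503-3p at 0.97 were called higher, but not with total count scaling, where they stood at −0.12 and −0.15. Neither was called with RLE scaling, at 0.69 and 0.63 (edgeR adjusted p = 0.167 and 0.106). With the mouse as a block miR-450b-3p was not called (0.81, edgeR adjusted p = 0.0965), while miR-503-3p was (0.92, edgeR adjusted p = 0.0105). miR-351-5p, at 0.62, was not called.

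miR-103-3p and miR-107-3p carry the letters of the family's seed 1 base nearer to their 5′ end, and differ from each other near the 3′ end.
miR-103-3p: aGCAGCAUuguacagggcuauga
miR-107-3p: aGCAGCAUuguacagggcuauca
In the brown fat IP the log2 fold change of miR-103-3p was −0.34 (edgeR adjusted p = 0.308), close to the median of all miRNAs, and that of miR-107-3p was −0.67 (edgeR adjusted p = 0.0496). With total count scaling miR-103-3p was called lower at −1.53, beside a median of −1.44. In inputs both were called higher in brown fat than in liver, muscle and hypothalamus, as miR-322-5p was. These input calls too were read from the TMM fit only. In brown fat inputs miR-103-3p averaged 4439 ± 1553 CPM.

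Over the 8 group means of log2 CPM, the 5 miRNAs outside these lists most alike to miR-16-5p, among 182 with a mean of at least 100 CPM, were miR-30b-5p, miR-140-3p, miR-30e-5p, miR-29a-3p and miR-20a-5p. Their Pearson correlations with it were 0.982, 0.97, 0.966, 0.961 and 0.96, and those of the other 5 members ran from 0.922 for miR-322-5p to 0.98 for miR-195a-5p. These are descriptions over 8 points that share their libraries.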

How the data were processed

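The deposited table, made by the authors, holds expected counts that need not be whole numbers, for 1894 mature miRNAs and 40 libraries. Per the submitters' processing notes, fastp, STAR, featureCounts and the genome mm10 were used, with no versions given there. Rounding to whole numbers moved no library's total by more than 0.13%. Groups came from the labels. Tests used edgeR 4.0.16 in R 4.3.3 (filterByExpr, TMM, glmQLFit and glmQLFTest, two-sided, Benjamini-Hochberg over all miRNAs tested, threshold 0.05) in 13 comparisons, IP against input per tissue, 3 differences of those and 6 contrasts among 20 inputs. Values of the TMM-scaled fits were set beside RLE and total count scaling, no filter, DESeq2 1.42.0, a mouse block, all 40 libraries in 1 fit, and fits without each library. The scripts were tested on simulated data.

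The labels' mouse numbers pair 19 of the 20 IPs with an input, as brown fat replicate 5 joins different mice. Deviations from the group mean correlated by −0.04 to 0.579 within pairs (median 0.153, above 0.1 in 13). The members and lists were chosen with earlier results of these data known. The rule for naming was the 6 members everywhere, and entries of the lists (3p arms, other entries of the family's name, X cluster, shifted seed) with at least 10 CPM in a group. The other 6 entries of the family's name, of which 2 had a count, were not tested in any comparison. The arm ratios over all hairpins and the listed miRNAs under other scalings were chosen after values were seen. Shares, ratios within a library and likeness are descriptions without a test. Total counts set the precision, and intervals cover counting error only.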

Additional observations from a re-analysis of the deposited data

Results flagged for a closer look

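Of 26 groups of 5 libraries with enough counts, 5 held a highest library whose gap to the next, divided by the group's range, was above 0.71. For independent, normally spread values, chance gives a gap this large at either end in about 1 group in 20. The groups here share libraries, so the number flagged cannot be set against that share. The cause of each was not tested. In brown fat IPs, library 2 had 24.02 CPM of miR-195a-5p, where the next highest had 9.497. In brown fat inputs, library 5 had 122.0 CPM of miR-15b-5p, where the next highest had 37.6, and it also held the most red-blood-cell markers, at 814 CPM. In muscle inputs, library 2 had 37.83 CPM of miR-15a-5p, where the next highest had 19.48. Hypothalamus input 3 was high for 2 members, with 13.68 CPM of miR-15b-5p, where the next library had 6.534, and 158.9 CPM of miR-195a-5p, where the next had 71.88.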

How the results depend on the processing

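The lower level of all 6 members in the brown fat IP, and their higher level in brown fat than in hypothalamus inputs, kept direction and call under every alternative run. The number of members called moved by over 1.5 times in 9 of the 13 comparisons. For IP against input, no filter and the fit of all 40 libraries each called 6 members in liver and 6 in hypothalamus, against 3 and 2, since more members were then tested. For the IP change of brown fat minus liver DESeq2 called 2. For brown fat minus muscle the mouse block called 2, and fits without 1 library 0 to 1. In the difference from hypothalamus DESeq2 called 1, and fits without 1 library 0 to 1. Among inputs, the mouse block called 2 members for brown fat minus liver and 1 for brown fat minus muscle. Total count scaling called 2 for liver minus hypothalamus and 3 for muscle minus hypothalamus. Those 3 were called lower in muscle, where TMM called 6 higher, and the signs that turned are given below. Over all miRNAs the mouse block called 104 for brown fat minus liver, against 204.

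Signs turned mainly in the IP-change differences, none of them called with TMM and all libraries. For brown fat minus liver, miR-497a-5p was −0.15 with total count scaling. DESeq2 gave −3.11 for miR-15a-5p, −3.29 for miR-15b-5p, −1.35 for miR-195a-5p, −3.84 for miR-497a-5p and −3.38 for miR-322-5p. The mouse block gave −0.12 for miR-15b-5p, and fits without 1 library −0.48 to 2.38. For brown fat minus muscle, miR-15b-5p was −0.98 with total count scaling, −0.90 with the mouse block and −1.60 to 1.45 without 1 library. DESeq2 gave −2.70 for miR-15a-5p, −3.27 for miR-15b-5p, −0.71 for miR-497a-5p and −0.28 for miR-322-5p. For brown fat minus hypothalamus, RLE scaling gave 0.26 for miR-15a-5p and 0.62 for miR-322-5p. Total count scaling gave 0.70 for miR-15a-5p, 0.079 for miR-16-5p and 1.04 for miR-322-5p. DESeq2 gave −2.02 for miR-497a-5p, and the mouse block 0.71 for miR-15a-5p. Without 1 library miR-15a-5p ranged from −1.97 to 1.96, miR-15b-5p from −3.03 to 0.95, miR-16-5p from −1.54 to 2.27, miR-195a-5p from −2.22 to 1.74, miR-497a-5p from −0.64 to 3.27 and miR-322-5p from −1.38 to 1.98.

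Among inputs, miR-497a-5p in brown fat minus muscle was −0.016 with RLE scaling and with DESeq2, −0.17 with the mouse block and −0.068 to 0.41 without 1 library. miR-16-5p in liver minus muscle was −0.072 with RLE scaling and DESeq2, and −0.011 with no filter. Liver minus hypothalamus turned to −1.21 for miR-195a-5p, −1.53 for miR-497a-5p and −0.40 for miR-322-5p with total count scaling, and miR-497a-5p was −0.017 to 0.60 without 1 library. Muscle minus hypothalamus turned to −1.36 for miR-15a-5p, −1.09 for miR-15b-5p, −0.89 for miR-16-5p, −0.33 for miR-195a-5p and −0.41 for miR-497a-5p with total count scaling. The cause was not tested. The mouse block changed no call of a member beyond those given here and in the results above.

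Over all miRNAs, the share of calls that were higher moved with total count scaling to 24.0% in the brown fat IP, against 45.9% with TMM, to 17.7% against 38.3% in liver and to 25.7% against 37.4% in hypothalamus. Among inputs it moved to 91.6% against 57.4% for brown fat minus liver (310 calls against 204), to 98.1% against 56.7% for brown fat minus muscle (372 against 178), to 79.3% against 50.2% for liver minus muscle, to 16.0% against 39.6% for liver minus hypothalamus and to 9.82% against 37.4% for muscle minus hypothalamus. With RLE it was 42.4% for brown fat minus muscle. For the IP change of brown fat minus liver, RLE made 4 calls against 26, with 75% against 96.2% higher. The comparison with hypothalamus had 145 calls with TMM, while RLE made 59 and total count scaling 42, with 39% and 69% against 6.21% higher. Low IP totals limit liver and hypothalamus, where most members gave only bounds.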
